A study of Mus musculus with 12 samples.

Results

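The genes described here encode the signaling core of the T cell receptor (TCR) and the first kinases and scaffold below it: Cd3d, Cd3e, Cd3g, Cd247, Cd4, Cd5, Lck, Zap70 and Lat. They were taken by symbol from the table of 55228 genes, and all 9 were found and passed the filter on low values (15043 genes tested). RNA was sequenced from 12 libraries of regulatory T cells (Tregs), 3 in each of 4 groups. CD4+ cells from lymph nodes of 16 NOD.Foxp3-GFP mice, whose age the labels do not give, were pooled, divided into 3 parts, sorted for Foxp3.GFP and CD25 on separate machines and activated separately. All cultures therefore came from 1 pool of animals, and the replicate number marks a shared sort. In the study's general methods, sorted Tregs were activated with CD3/CD28 beads.

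On day 2 each part was transduced with an empty vector (EV), 1G12t or 3A10t, and every culture held IL-2 up to day 4, when all but a portion of the EV cells were washed. In 1G12t and 3A10t, an orthogonal IL-2 variant (1G12 or 3A10) is tethered by a CD25 peptide to a mutated IL-2 receptor beta chain that it binds. The EV no IL-2, 1G12t and 3A10t cells then went 5 days without added IL-2, whereas the EV+IL-2 cells were that portion, kept in medium with IL-2, at 100 IU/ml in the study's methods. Transduced cells were sorted by the Thy1.1 marker on day 9. The comparisons ask how RNA of the receptor machinery stood with soluble IL-2, with either tether and with neither.

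The TCR recognizes peptide on MHC through its alpha and beta chains, which have no signaling tails of their own. The CD3 delta, epsilon, gamma and zeta chains carry the tyrosine motifs that LCK, brought in by the CD4 coreceptor, phosphorylates. ZAP-70 docks on these motifs and phosphorylates LAT, the membrane scaffold on which downstream enzymes assemble, and CD5 tunes the signal down. Tregs need TCR signals for their suppressive program and IL-2 for their survival.

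In mouse genome build GRCm38, 3 of the genes lie side by side on chromosome 9. Cd3g (ENSMUSG00000002033, chr9:44969572-44980431, minus strand) and Cd3d (ENSMUSG00000032094, chr9:44981786-44987339, plus strand) point away from each other with 1354 bases between them. Cd3e (ENSMUSG00000032093, chr9:44998740-45009627, minus strand) lies 11400 bases beyond the end of Cd3d. The stretches of 250 bases before the RefSeq start sites (GRCm38.p6) of these 3 neighbors and of Cd5 are printed because Cd3d and Cd3g moved together in the data below, Cd3e did not move with them, and Cd5 had the most stable difference. Capitals mark matches to the core ETS letters GGAAGT and to the STAT palindrome TTCNNNGAA, searched on both strands, and the rest is in lower case.
Cd3d, chr9:44981536-44981785, plus strand: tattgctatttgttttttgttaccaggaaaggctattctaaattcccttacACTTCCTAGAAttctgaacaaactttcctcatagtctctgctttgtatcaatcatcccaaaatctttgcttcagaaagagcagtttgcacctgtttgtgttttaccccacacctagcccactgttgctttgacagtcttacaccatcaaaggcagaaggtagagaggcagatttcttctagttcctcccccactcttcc
Cd3g, chr9:44980432-44980681, minus strand: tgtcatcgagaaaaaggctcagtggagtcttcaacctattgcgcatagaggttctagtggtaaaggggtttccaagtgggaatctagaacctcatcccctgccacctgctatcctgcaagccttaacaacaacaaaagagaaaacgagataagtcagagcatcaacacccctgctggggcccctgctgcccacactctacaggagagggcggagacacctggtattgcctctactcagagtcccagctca
Cd3e, chr9:45009612-45009861, minus strand: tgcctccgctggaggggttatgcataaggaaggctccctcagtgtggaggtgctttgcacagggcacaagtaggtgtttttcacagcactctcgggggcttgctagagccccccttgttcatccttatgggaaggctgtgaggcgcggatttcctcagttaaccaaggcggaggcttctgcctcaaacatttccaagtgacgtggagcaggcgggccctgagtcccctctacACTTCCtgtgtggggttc
Cd5, chr19:10738975-10739224, minus strand: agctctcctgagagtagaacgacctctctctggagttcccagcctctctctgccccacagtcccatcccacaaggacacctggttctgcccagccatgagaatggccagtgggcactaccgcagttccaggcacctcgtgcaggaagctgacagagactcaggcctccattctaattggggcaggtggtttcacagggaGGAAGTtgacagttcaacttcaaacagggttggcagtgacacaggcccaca
The Cd3d stretch held 1 ETS match, from base 199 to base 194 before the start, and 1 STAT match, from base 197 to base 189, and these overlap in a single capital run. The Cd3e stretch held 1 ETS match from base 18 to base 13 before its start, the Cd5 stretch held 1 from base 51 to base 46, and the Cd3g stretch held neither motif. Among 32851 mouse promoter stretches of this length, 19.7% held the ETS letters and 7.02% the STAT letters. RefSeq entries were matched for 8 of the 9 genes, and the other is Cd4. The starts of Lck (2 listed) each held 1 ETS match and the Cd247 start held 1, whereas the Lat start held neither motif. Of 3 listed Zap70 starts, 1 held the ETS letters. A match gives letters only and says nothing of binding.

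The other 6 genes are spread over the genome. Cd247, for the zeta chain, is at chr1:165788681-165877277 on the plus strand, and Zap70 is at chr1:36761798-36782818 on the same strand. Cd4 is at chr6:124864692-124888221, Cd5 at chr19:10717116-10739002, Lck at chr4:129548344-129573641 and Lat at chr7:126363824-126369570, all on the minus strand. Exons of Cd247 share 3007 bases with those of Pou2f1 on the other strand, but Pou2f1 was listed at only 9.24 to 19.8 TPM.

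Levels are given as TPM, a measure of transcript abundance that accounts for transcript length, scaled between libraries by a factor of 0.846 to 1.082. All 9 genes were abundant. Lck ranked 56th by mean TPM among the 15043 genes, Lat ranked 70th and Cd3g 79th, while Zap70, the lowest, ranked 684th. The Treg label was borne out by Foxp3, the Treg-defining transcription factor, at 373 to 515 TPM in every library. Of the CD8 markers, Cd8a stayed under 1 TPM and Cd8b1 was at 3.14 to 5.79 TPM, and both NK cell markers together under 0.53 TPM. Of 5 myeloid markers, Cst3 was listed at 444 to 770.0 TPM and the others at no more than 1.75 TPM. B cell markers summed to 9.28 to 16.7 TPM. In bulk RNA, fewer cells of a type and less RNA per cell cannot be told apart.

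3A10t replicate 2 stood apart before any test. It had the factor of 0.846. In scaled TPM it had the highest Cd3d, Cd3g, Cd247, Lck, Zap70 and Lat of the 12 libraries and the lowest Cd4. With TPM as deposited, its Lck (1725 TPM) and Zap70 (241 TPM) were not the highest. In scaled TPM, 3A10t replicate 3 lay between replicates 1 and 2 for each of these genes. 3A10t replicate 1 was within the range of EV no IL-2 for all of them but Cd3g. The median SD of log2 values over all tested genes was 0.22 among the 3A10t libraries, against 0.11 to 0.15 in the other groups. The fit used below takes 1 spread per gene for all groups, so its SEs and intervals can be too small for 3A10t.

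**Figure D1:**
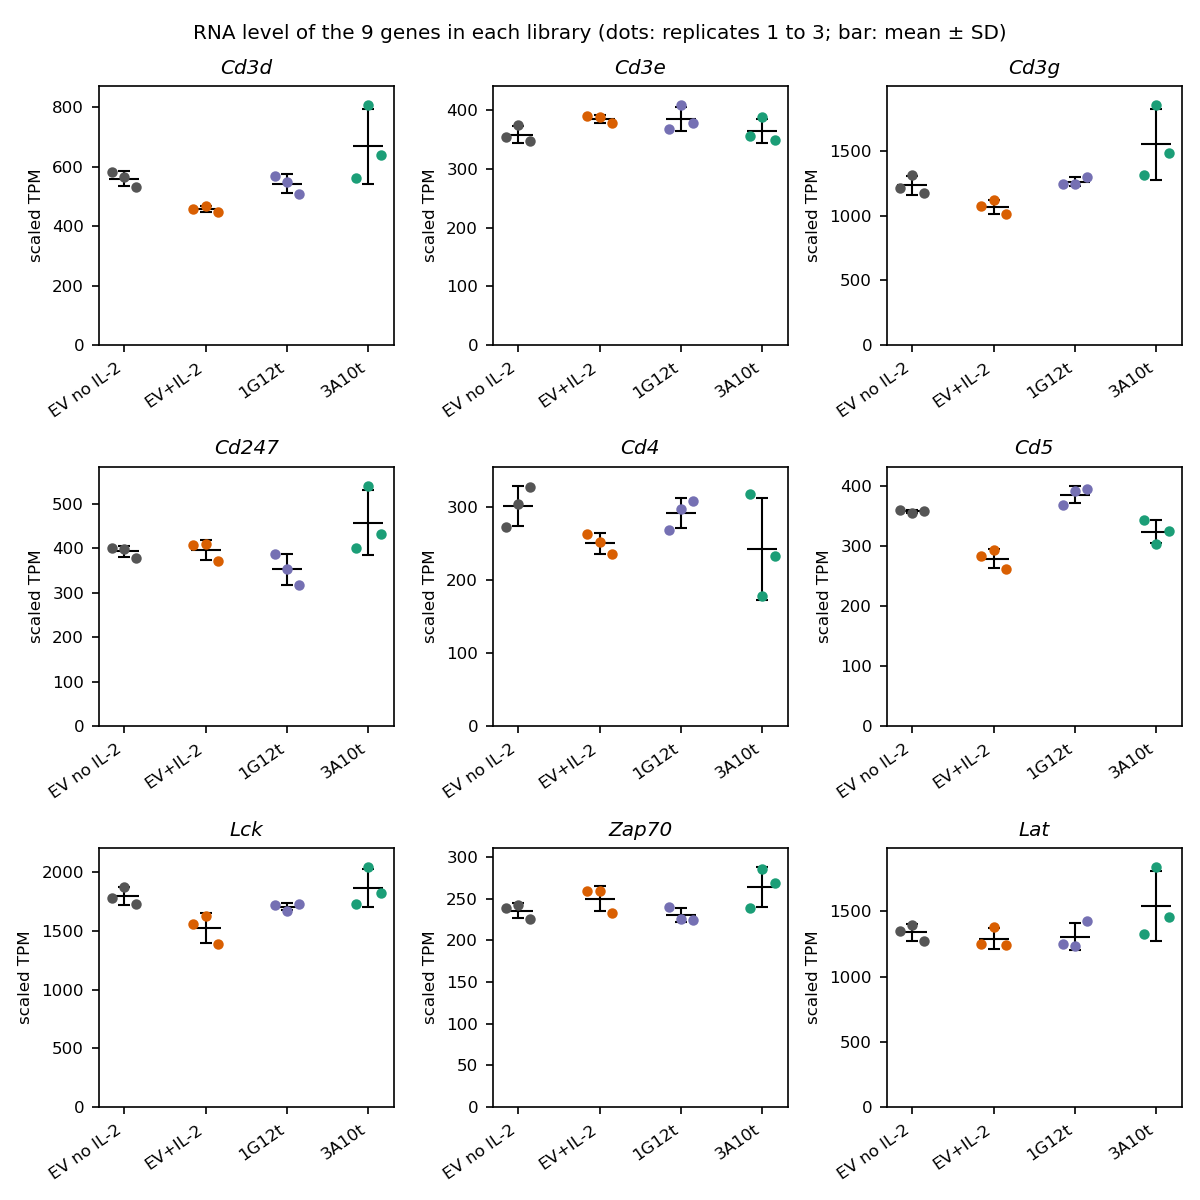
Scaled TPM of each gene (y axis, from 0) in the 4 groups (x axis); dots are replicates 1 to 3 from left to right and bars are mean ± SD. Cd5, Cd3d and Cd3g were lowest in EV+IL-2, Cd3e was nearly level, and the 3A10t dots were the most spread for Cd3d, Cd3g, Cd247, Cd4 and Lat.

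Among the CD3 chains, Cd3g was the most abundant. In the order of replicates 1, 2 and 3, its level was 1215, 1312 and 1172 TPM in EV no IL-2 and 1070, 1120 and 1013 TPM in EV+IL-2. It was 1240, 1240 and 1301 TPM in 1G12t and 1313, 1851 and 1484 TPM in 3A10t. In scaled TPM, every EV+IL-2 library was below every other library, and every 3A10t library was above every other library. With TPM as deposited the former held. 3A10t replicate 1 (1303 TPM) was then below EV no IL-2 replicate 2 (1333 TPM) and 1G12t replicates 2 and 3 (1321 and 1408 TPM). The 3A10t mean (1549 ± 275 TPM, SD, n = 3) exceeded the EV+IL-2 mean (1068 ± 53.1 TPM, n = 3) by 0.52 on the log2 scale (SE 0.108, 95% interval 0.28 to 0.76, limma adjusted p = 0.00675).

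Cd3d, for the delta chain that pairs with epsilon, followed the same order of extremes. Its level was 584, 565 and 533 TPM in EV no IL-2 and 459.7, 468 and 449 TPM in EV+IL-2. It was 570.0, 549.7 and 507 TPM in 1G12t and 562, 807 and 639 TPM in 3A10t. The EV+IL-2 libraries were again below all others, while the 3A10t libraries overlapped with EV no IL-2 and 1G12t. 3A10t exceeded EV+IL-2 by 0.53 on the log2 scale (SE 0.113, 95% interval 0.28 to 0.78, limma adjusted p = 0.00803).

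Cd3e, for the epsilon chain that pairs with both gamma and delta, was the steadiest gene of the set in scaled TPM. Its level was 354, 375 and 348 TPM in EV no IL-2, and 389.9, 389 and 378 TPM in EV+IL-2. It was 369, 409 and 379 TPM in 1G12t, and 356, 388 and 350.1 TPM in 3A10t. In scaled TPM, the highest library was 1.18-fold above the lowest, against 1.83-fold for Cd3g and 1.80-fold for Cd3d. With TPM as deposited, Cd3e ran from 328 to 436 TPM, and Zap70, then the steadier gene, from 234 to 256 TPM. Cd247, for the zeta chain that completes the receptor at the surface, was 401, 399 and 379 TPM in EV no IL-2 and 407, 411 and 371 TPM in EV+IL-2. It was 388, 353 and 317 TPM in 1G12t, and 400.1, 539.7 and 433 TPM in 3A10t. In scaled TPM, the 3A10t libraries were above those of 1G12t without overlap, and the EV groups overlapped. With TPM as deposited, 3A10t replicate 1 (397 TPM) was below 1G12t replicate 1 (402 TPM).

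Ratios within a library do not depend on scaling between libraries, and they set Cd3d and Cd3g apart from Cd3e. Ratios of the other genes to Cd3e, except Zap70, also separated the EV groups, so this was not particular to Cd3d and Cd3g. The Cd3d to Cd3e ratio was 1.65, 1.51 and 1.53 in EV no IL-2, and 1.18, 1.20 and 1.19 in EV+IL-2. It was 1.54, 1.34 and 1.34 in 1G12t, and 1.58, 2.08 and 1.82 in 3A10t. All 3 EV+IL-2 libraries lay below the other 9. The Cd3g to Cd3e ratio was likewise 2.68 to 2.88 in EV+IL-2, below the 3.03 to 3.43 of 1G12t, the 3.37 to 3.50 of EV no IL-2 and the 3.69 to 4.77 of 3A10t. By contrast, the Cd3g to Cd3d ratio averaged 2.20 and 2.33 without and with IL-2 in the EV cells, 2.33 in 1G12t and 2.32 in 3A10t, and the groups overlapped. No test was made on these ratios.

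**Figure D2:**
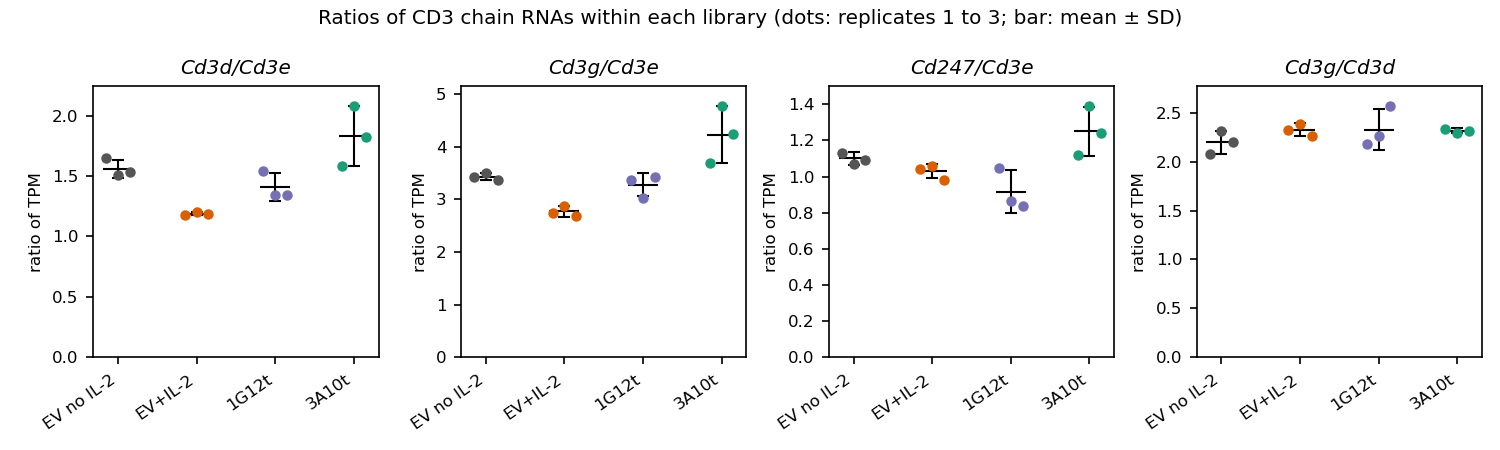
Ratios of deposited TPM of CD3 chain genes (y axis, from 0) within each library of the 4 groups (x axis); dots are replicates 1 to 3 and bars are mean ± SD. Ratios of Cd3d and Cd3g to Cd3e were lowest in the 3 EV+IL-2 libraries, between 1.18 and 1.20 for Cd3d, whereas Cd3g over Cd3d stayed between 2.08 and 2.57 in all 12.

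CD4 is the coreceptor that brings LCK to the receptor, and its RNA was 273, 305 and 327 TPM in EV no IL-2 and 263, 252 and 235 TPM in EV+IL-2. It was 268, 298 and 308 TPM in 1G12t and 317, 179 and 232 TPM in 3A10t. The EV+IL-2 libraries were below those of EV no IL-2 without overlap, but the 3A10t libraries spanned nearly the whole range of the study. Its SD of log2 values in 3A10t was 0.41, the largest of the 9 genes in any group.

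CD5 is a surface receptor that restrains TCR signaling and whose level is set by TCR signal strength during T cell development. Its RNA was 361, 355 and 358 TPM in EV no IL-2, and 283, 293 and 261 TPM in EV+IL-2. It was 369, 391 and 395 TPM in 1G12t, and 343, 304 and 325 TPM in 3A10t. In scaled TPM, no library of 1 group overlapped with another group. With TPM as deposited, 3A10t replicate 2 (257 TPM) was below all EV+IL-2 libraries (263 to 284 TPM). In both, the order of the means was EV+IL-2, 3A10t, EV no IL-2 and 1G12t from low to high. With neighbors in that order compared by limma, the step from EV+IL-2 to 3A10t had an adjusted p = 0.0481, that from 3A10t to EV no IL-2 an adjusted p = 0.214, and that from EV no IL-2 to 1G12t an adjusted p = 0.745.

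LCK is the Src family kinase that starts the cascade, and Lck was the most abundant gene of the set. Its level was 1779, 1873 and 1726 TPM in EV no IL-2, and 1558, 1628 and 1383 TPM in EV+IL-2. It was 1718, 1670 and 1728 TPM in 1G12t, and 1727, 2040 and 1824 TPM in 3A10t. The EV+IL-2 libraries were below all others. Zap70, for the kinase that binds phosphorylated CD3 tails, ranged only from 225 to 285 TPM over all 12 libraries, with means of 236 ± 8.70 and 250.2 ± 15.4 TPM in the EV cells without and with IL-2, 231 ± 8.78 TPM in 1G12t and 264 ± 23.6 TPM in 3A10t (SD, n = 3 each). Lat, for the scaffold that ZAP-70 phosphorylates, had means of 1338 ± 63.5, 1291 ± 77.0, 1305 ± 105 and 1540 ± 266 TPM (SD, n = 3 each) in the same order. By replicate, Lat was 1349, 1396 and 1270 TPM in EV no IL-2, 1250, 1380 and 1243 TPM in EV+IL-2, 1252, 1237 and 1426 TPM in 1G12t, and 1324, 1837 and 1459 TPM in 3A10t. Lat was highest in 3A10t replicate 2. For both Zap70 and Lat, each group overlapped with at least 1 other.

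Relative to Cd3e in the same library, Cd5 and Lck also separated the EV groups, as did Cd4, Cd247 and Lat. The Cd5 to Cd3e ratio was 0.690 to 0.753 in EV+IL-2, below the 0.782 to 0.964 of 3A10t, the 0.948 to 1.03 of EV no IL-2 and the 0.957 to 1.04 of 1G12t. The Lck to Cd3e ratio was 3.66 to 4.18 in EV+IL-2 and 4.96 to 5.02 in EV no IL-2, but 1G12t, at 4.08 to 4.66, overlapped with EV+IL-2. Cd4 over Cd3e was 0.622 to 0.674 in EV+IL-2 and 0.770 to 0.939 in EV no IL-2, and 3A10t covered 0.460 to 0.892. Zap70 over Cd3e, at 0.615 to 0.666 with IL-2 and 0.648 to 0.673 without, overlapped in the EV cells. Lat over Cd3e was 3.21 to 3.54 with IL-2 and 3.65 to 3.81 without, and Cd247 over Cd3e was 0.981 to 1.06 with and 1.07 to 1.13 without. The scaled TPM of Lat and of Cd247 overlapped between these groups.

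Soluble IL-2 was compared first, as EV+IL-2 against EV no IL-2. Cd5 fell by 0.36 on the log2 scale (SE 0.0701, 95% interval -0.52 to -0.21, limma adjusted p = 0.00618), from 358 ± 2.68 to 279 ± 16.3 TPM (SD, n = 3 each). It was the only one of the 9 genes to pass an adjusted p of 0.05, whereas 13.3% of all tested genes passed in this comparison. Cd5 passed in each of 23 alternative analyses, with log2 differences from -0.47 to -0.31.

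Cd3d and Lck were lower by -0.29 (SE 0.113, limma adjusted p = 0.129) and -0.24 (SE 0.0791, limma adjusted p = 0.0752) on the log2 scale. Both passed with TPM as deposited, with quantile normalization, with the length correction or without 3A10t replicate 2, and Cd3d also with the 6 compared libraries alone. Cd3g was at -0.21 (limma adjusted p = 0.266) and Cd4 at -0.27 (limma adjusted p = 0.37), and Cd3g passed with TPM as deposited or with quantile normalization. Differences of the other 4 genes lay between -0.05 for Lat and 0.10 for Cd3e, the latter with a sign that turned under quantile normalization. In scaled TPM, the libraries did not overlap for 6 of the 9 genes, against 39.6% of all tested genes. Cd3d, Cd3g, Cd4, Cd5 and Lck were lower and Cd3e higher, but Cd3e overlapped with TPM as deposited. The median difference of the 9 was -0.207 on the log2 scale, and that of all tested genes was -0.0144.

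Other markers moved in EV+IL-2 as well. Tcrg-C1, a gamma chain constant gene of gamma delta T cells, was at 15.9 to 25.2 TPM there against 0.797 to 0.863 TPM in EV no IL-2, while Trdc, the delta chain constant gene, was at 2.97 to 3.17 against 2.19 to 2.65 TPM. Hba-a1, a globin gene, was at 14.3 to 24.1 TPM in EV+IL-2 and at most 2.33 TPM elsewhere, whereas Hbb-bs stayed under 0.35 TPM in EV+IL-2. The sum of the 5 Treg markers was 4260 to 4630 TPM with IL-2 and 2980 to 3090 TPM without. That sum was carried mainly by Tnfrsf18, at means of 2814 and 1777 TPM, and by Il2ra, at 707 and 416 TPM. Ikzf2 had means of 230.3 and 148 TPM, Foxp3 of 507 and 499 TPM, while Ctla4 was at 168 to 177 TPM with IL-2 and 187 to 211 TPM without. The part of these markers in the differences of the receptor genes was not tested.

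3A10t was compared with EV no IL-2 to ask what the 3A10 tether changed without added IL-2. None of the 9 genes passed by limma, against 2.05% of all tested genes. At an unadjusted p under 0.05 there was 1 gene, Cd3g, at 0.32 on the log2 scale (SE 0.108, 95% interval 0.08 to 0.56, limma adjusted p = 0.116), against 26.0% of all tested genes. Cd3d was at 0.24 (95% interval -0.01 to 0.49, limma adjusted p = 0.205), Cd247 at 0.21 (limma adjusted p = 0.259), Zap70 at 0.16 (limma adjusted p = 0.232) and Lat at 0.19 (limma adjusted p = 0.295). Lat fell to just below 0 under quantile normalization. Cd4 stood on the other side at -0.35 (95% interval -0.72 to 0.03, limma adjusted p = 0.216) and Cd5 at -0.15 (limma adjusted p = 0.214). In scaled TPM, libraries did not overlap for 2 genes, Cd3g and Cd5, against 25.4% of all tested genes. Those of Cd3g overlapped with TPM as deposited. The median difference was 0.161 for the 9 genes and 0.0262 for all tested genes.

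This comparison hung on single 3A10t libraries, as did the count of calls over all genes. That count also hung on libraries outside the comparison. With the 6 compared libraries alone, none of the 9 genes passed, against 0.0592% of all tested genes. Leaving out 1G12t replicate 1 or 2, none passed, against 0.800% and 0.763%. Without 3A10t replicate 1, 4 genes passed: Cd3d at 0.36 (limma adjusted p = 0.0298), Cd3g at 0.43 (limma adjusted p = 0.0126), Zap70 at 0.23 (limma adjusted p = 0.0488) and Cd4 at -0.56 (limma adjusted p = 0.0109). In that setting 23.2% of all tested genes passed, in place of 2.05%, so the rise in calls was not limited to these genes. Without 3A10t replicate 2 these were 0.09, 0.18, 0.10 and -0.15 and none passed, against 0.315% of all tested genes. Without 3A10t replicate 3 they were 0.27, 0.34, 0.15 and -0.33 and none passed, against 0.227%. Foxp3 was lowest in the same library as Cd4, at 373 TPM in 3A10t replicate 2 against 468 and 395 TPM in replicates 1 and 3.

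1G12t was compared with EV no IL-2 in the same way. None of the 9 genes passed by limma at an adjusted or an unadjusted p of 0.05, against 0.0199% and 7.05% of all tested genes. The log2 differences ran from -0.16 for Cd247 (95% interval -0.41 to 0.09) to 0.11 for Cd5 (95% interval -0.05 to 0.26). Libraries did not overlap for 1 gene, Cd5, against 16.5% of all tested genes. The median difference of the 9 genes was -0.0382 on the log2 scale and that of all tested genes was -0.00383.

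The tethers were also set against each other. Between 3A10t and 1G12t none of the 9 genes passed by limma, against 4.27% of all tested genes, and 5 of 9 had an unadjusted p under 0.05, against 29.7%. Cd247 was higher in 3A10t by 0.37 on the log2 scale (SE 0.112, limma adjusted p = 0.0724), Cd3d by 0.29 (limma adjusted p = 0.124), Cd3g by 0.28 (limma adjusted p = 0.117) and Zap70 by 0.19 (limma adjusted p = 0.145). Cd5 was at -0.25 in 3A10t relative to 1G12t (SE 0.0701, limma adjusted p = 0.0602), with no overlap of the libraries. With TPM as deposited or quantile normalization, Cd5 and Cd3e passed as lower in 3A10t. Without 3A10t replicate 1, 7 of 9 passed, with Cd3d, Cd3g, Cd247, Zap70 and Lat higher and Cd4 and Cd5 lower, while the share of all tested genes that passed went from 4.27% to 27.6%. With the 6 compared libraries alone none of the 9 passed, against 0.0735% of all tested genes.

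Last, each tether was compared with soluble IL-2. In 3A10t against EV+IL-2, 4 of 9 genes were called higher and none lower, against 23.4% of all tested genes in either direction. Besides Cd3d and Cd3g above, Lck was higher by 0.29 (SE 0.0791, 95% interval 0.12 to 0.47, limma adjusted p = 0.0235) and Cd5 by 0.21 (SE 0.0701, limma adjusted p = 0.0481). The calls of Cd3d and Cd3g were lost in 1 of 23 alternatives, when the 6 compared libraries were fitted alone (limma adjusted p = 0.0557 and 0.0514). The Lck call was lost in 6, among them without replicate 1 or 3 of EV+IL-2, and without replicate 2 or 3 of 3A10t. The Cd5 call was the frailest and held in 5 of 23. Among those that ended it, the replicate block, which compares libraries of the same sort, gave an adjusted p = 0.0668 by limma.

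In 1G12t against EV+IL-2, Cd5 was higher by 0.47 (SE 0.0701, 95% interval 0.31 to 0.62, limma adjusted p = 0.00121), at 385 ± 14.4 against 279 ± 16.3 TPM (SD, n = 3 each). It was the only one of the 9 called, against 20.6% of all tested genes, and it was called in each of 23 alternatives. Cd3g was at 0.24 (limma adjusted p = 0.148), Cd3d at 0.24 (limma adjusted p = 0.167) and Lck at 0.17 (limma adjusted p = 0.17). Libraries did not overlap for these, Cd4 and Cd5, which is 5 of the 9 genes, against 6492 of the 15043 tested genes. Cd3g, Cd3d and Lck also passed with TPM as deposited or quantile normalization, and Cd3d and Cd3g without 3A10t replicate 2. Comparisons with EV+IL-2 share its 3 libraries, so the low Cd5 in EV+IL-2 enters each of them.

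**Figure D3:**
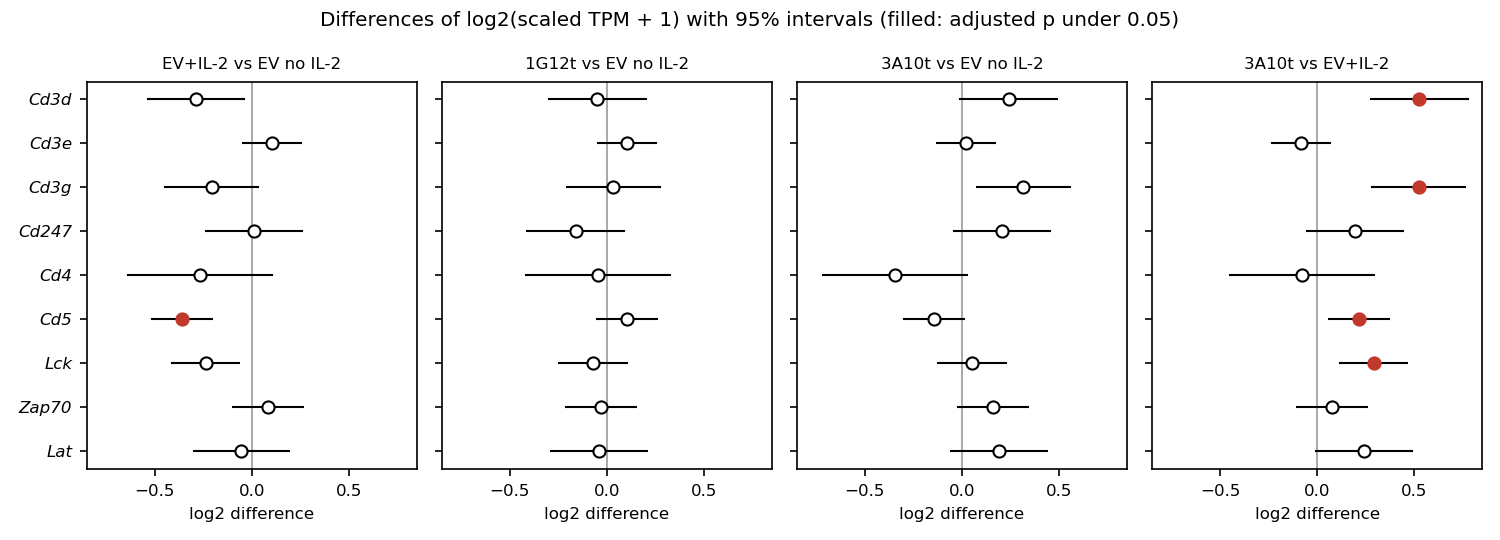
Log2 difference of each gene (x axis) with its 95% interval (line) in 4 comparisons, 1 per panel; filled dots passed an adjusted p of 0.05. Cd5 passed in EV+IL-2 against EV no IL-2, and Cd3d, Cd3g, Cd5 and Lck passed in 3A10t against EV+IL-2; neither tether had a filled dot in its panel against EV no IL-2.

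The remaining TCR machinery was followed in a list of 65 genes, all of which were tested. In EV+IL-2 against EV no IL-2, 6 were called higher and 5 lower by limma. These 11 were 16.9% of the list, near the 13.3% of all tested genes, so the genes below are given singly and not as a change of the list. Of the chains that bind antigen, Trbc2, a beta chain constant gene, fell by 0.41 on the log2 scale, from 4015 ± 164 to 3032 ± 129 TPM (SD, n = 3 each, limma adjusted p = 0.0198, called in 18 of 23 alternatives). Trbc1, its near-identical neighbor with which it may share reads, was at -0.40 (limma adjusted p = 0.0514), while Trac, the alpha chain constant gene, was at 0.12 (limma adjusted p = 0.608). In 3A10t against EV+IL-2, Trbc1 was higher by 0.68 (limma adjusted p = 0.003) and Trbc2 by 0.58 (limma adjusted p = 0.00235).

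The other lower genes in EV+IL-2 were Cd28, Cd6, Ptpn22 and Dgka. Cd28, the main costimulatory receptor, went from 155 to 103 TPM (-0.57, limma adjusted p = 0.00126). Cd6, for a receptor related to CD5, went from 396 to 299 TPM (-0.41, limma adjusted p = 0.0352, but 0.0612 with the replicate block). Ptpn22, for a phosphatase that dephosphorylates LCK and ZAP-70, went from 87.8 to 47.8 TPM (-0.86, limma adjusted p = 0.0139). Dgka, for a kinase that removes the second messenger diacylglycerol, went from 529 to 345 TPM (-0.62, limma adjusted p = 0.00762). Of these, Cd28 and Dgka were called in each of 23 alternatives, Ptpn22 in 21 and Cd6 in 14. Leaving out a single EV no IL-2 or EV+IL-2 library could end the calls of Trbc2 and Cd6, and EV+IL-2 replicate 1 or 2 that of Ptpn22.

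Kinases and adaptors made up the higher genes. Trat1, a transmembrane adaptor of the TCR complex, rose from 293 ± 5.14 to 491 ± 31.6 TPM (SD, n = 3 each), by 0.74 on the log2 scale (limma adjusted p = 0.00032). Syk, the relative of ZAP-70 used mainly by B cells and myeloid cells, rose by 1.77 (limma adjusted p = 3.28e-05), but only from 1.13 to 6.25 TPM, a small level beside the 250.2 TPM of Zap70 in EV+IL-2. Gab2, an adaptor, rose by 1.40 (limma adjusted p = 0.000388), from 0.651 to 3.35 TPM. Txk, a Tec family kinase, rose by 0.70 (limma adjusted p = 0.0247, called in 17 of 23 alternatives), and Tespa1, an adaptor for calcium release, by 0.75 (limma adjusted p = 0.041, called in 11). Leaving out a single EV no IL-2 library ended both of these calls. B cell markers summed to 10.4 to 12.9 TPM in EV+IL-2 and 9.28 to 10.2 TPM in EV no IL-2, and the part of other cells in the Syk level was not tested.

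In 3A10t against EV no IL-2, 2 of the 65 were called and both were lower. This share, 3.08%, was near the 2.05% of all tested genes, of which 240 of 308 calls were lower. Plcg1, for the phospholipase that LAT recruits, was 56.3, 27.5 and 37.8 TPM in 3A10t and 73.1, 78.6 and 84.4 TPM in EV no IL-2, a difference of -0.998 on the log2 scale (limma adjusted p = 0.0378, called in 9 of 23 alternatives). Ptprc, for the phosphatase CD45 that keeps LCK active, was 533, 388 and 433 TPM against 595, 698 and 739 TPM, a difference of -0.59 (limma adjusted p = 0.0423, 0.0515 with the replicate block, called in 7 of 23). Both were lowest in 3A10t replicate 2, as Cd4 was, and both calls were lost without 3A10t replicate 2, without replicate 3, or without any 1 library of the EV groups. They were also lost with the 6 compared libraries alone and without 1G12t replicate 1 or 2. In 1G12t against EV no IL-2, none of the 65 was called by limma, against 0.0199% of all tested genes. At an unadjusted p under 0.05 there was 1 of the 65, against 7.05% of all tested genes. Relative to EV no IL-2, the median log2 difference of the 65 was -0.05 with IL-2, -0.103 with the 3A10 tether and -0.0213 with the 1G12 tether.

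**Figure D4:**
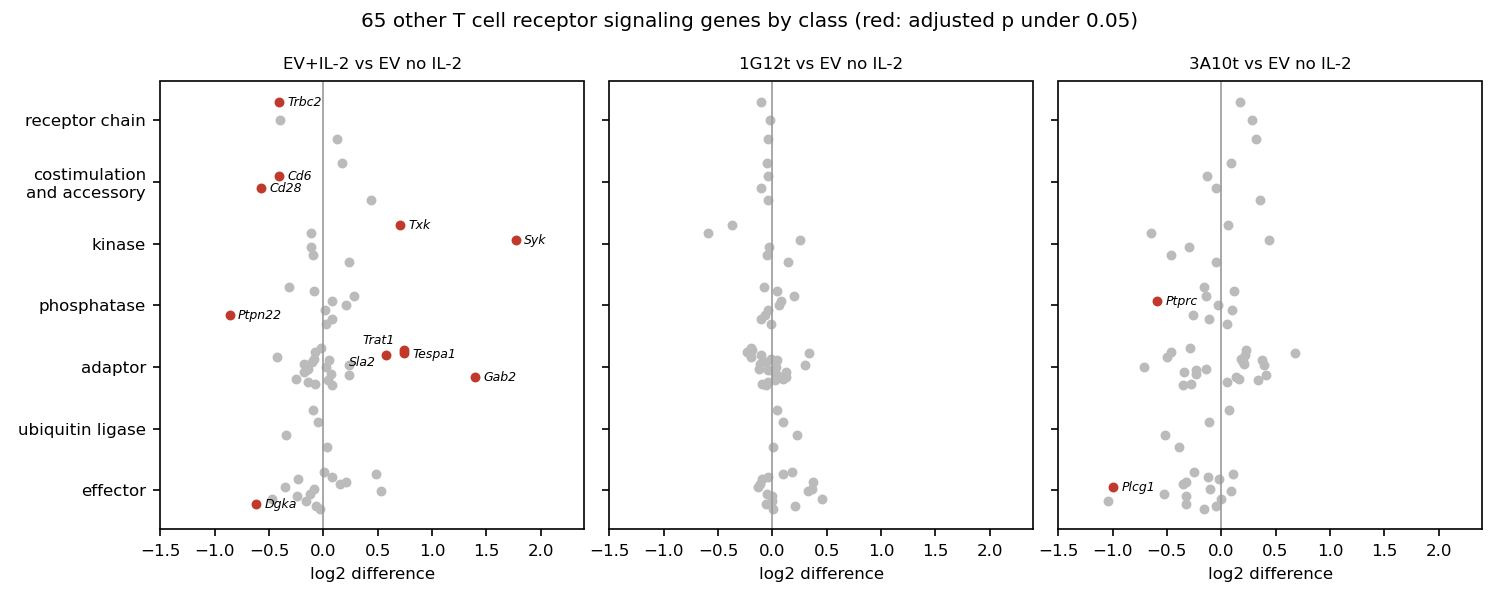
Log2 difference from EV no IL-2 (x axis) of 65 other TCR signaling genes, 1 dot each, by class (y axis) in EV+IL-2, 1G12t and 3A10t; red dots passed an adjusted p of 0.05 and are named. With IL-2, 6 dots on the right and 5 on the left were red, 2 on the left were red in 3A10t (Plcg1 and Ptprc) and none in 1G12t.

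The 9 genes did not follow a single pattern over the 12 libraries. For each, the gene with the most like profile was sought by the root mean square difference of centered log2 values among 15042 other genes. Within the set, Cd3d and Cd3g were each other's closest, at 0.0718, ranking 26th and 20th among all genes. Cd4 and Cd5 were far from the rest, since the fellow gene nearest to Cd4 was Cd5 at 0.189 and that nearest to Cd5 was Lck at 0.171. Outside the set, the nearest genes were Clpp for Cd3d (0.0535), Tmem234 for Cd3g (0.05), Wrn for Cd3e (0.0581), Mdh1 for Cd247 (0.0331), Snrk for Cd4 (0.0615), Hdac10 for Cd5 (0.0629), AI467606 for Lck (0.0359), Prpsap1 for Zap70 (0.0348) and Skap1 for Lat (0.0414).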

How the data were processed

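Reads were trimmed by the authors (Cutadapt 1.18), mapped to mm10 (STAR 2.5.3) and quantified by gene (RSEM 1.3.0, GENCODE annotation); versions are from the submitters' processing notes and the study's methods. The deposited values are TPM, 1 column per library. Depth cannot be read from TPM, and so the counting error of each value is not known. Genes above 0 TPM numbered 30393 to 36239 in the EV+IL-2 libraries and 37930 to 43285 in all others. The part of this in the differences from EV+IL-2 was not tested. The counts that the authors tested with DESeq2 1.26 were not used here. cDNA had been amplified for 15 cycles. Strandedness is not given in the sources used here.

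TPM were scaled by median-of-ratios factors and tested as log2(scaled TPM + 1) with limma 3.58.1 in R 4.3.3 (eBayes with trend), keeping genes whose mean TPM was 1 or more, in 1 fit of all 12 libraries. All p-values are two-sided, with Benjamini-Hochberg adjustment over the 15043 genes tested in each of 6 comparisons, and a call is an adjusted p under 0.05. The fit was tested on simulated data. Groups and replicate numbers came from the labels. Replicates came from 1 pool of 16 mice, so p-values measure the spread between these cultures and not between animals.

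The replicate number pairs libraries because the labels tie it to a shared sort. Over 18 pairs, deviations of same-numbered libraries correlated with a mean r of 0.041 (-0.11 to 0.15). The 23 alternatives were other pseudocounts, filters and scalings, a replicate block, a correction for transcript length, eBayes without trend, a fit of the 6 compared libraries and leaving out each library. The genes, lists and rules were chosen with earlier results of these data known. Named besides the 9 genes are markers, the alpha and beta chain constant genes, up to 5 higher and 5 lower called genes of the list of 65 in each comparison with EV no IL-2, and the nearest gene to each by profile. Sla2, the remaining higher gene in EV+IL-2, is named as well. Positions are from GENCODE M21 and promoters from RefSeq.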

Additional observations from a re-analysis of the deposited data

How the results depend on the processing

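The calls of Cd5 in EV+IL-2 against EV no IL-2 and in 1G12t against EV+IL-2 held in each of 23 alternatives, whereas counts of called genes among the 9 moved. In EV+IL-2 against EV no IL-2 (1 called), 4 were called with TPM as deposited or quantile normalization, 3 with the length correction, with or without the replicate block, 2 with the 6 compared libraries alone, and 1 to 3 with 1 library left out. The share of all tested genes called was 13.3% as reported, 14.6% as deposited, 13.0% with quantile normalization, 14.8% with the length correction, and 21.9% with 6 libraries. With 1 library left out, this share was 8.08% to 17.8%. In 3A10t against EV no IL-2 (0 called) the range with 1 library left out was 0 to 4, and in 3A10t against 1G12t (0 called) it was 0 to 7, both highest without 3A10t replicate 1, where calls over all tested genes also rose, from 2.05% to 23.2% and from 4.27% to 27.6%. 3A10t against 1G12t gave 2 with TPM as deposited or quantile normalization (9.28% and 3.19% of all). With the 6 compared libraries alone, 0 were called in 3A10t against EV no IL-2 and 0 against 1G12t (0.0592% and 0.0735% of all). In 3A10t against EV+IL-2 (4 called), quantile normalization gave 2 and the 6 libraries alone gave 0 (3269 and 1600 genes over all, from 3513). Leaving out 1 library gave 2 to 4 there (12.9% to 33.7% of all, from 23.4%). In 1G12t against EV+IL-2 (1 called), TPM as deposited and quantile normalization gave 4 and the 6 libraries alone gave 3 (21.8%, 17.0% and 21.5% of all, from 20.6%). Leaving out 1 library gave 1 to 3 there (13.2% to 25.4% of all). Both the 3 and the 25.4% were reached without 3A10t replicate 2. The count stayed at 0 in every alternative for 1G12t relative to EV no IL-2. The cause of these shifts was not tested.

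With the replicate block, which pairs libraries of the same sort, 3 in place of 4 genes were called in 3A10t against EV+IL-2, and counts of the 9 in the other comparisons were as without it. It also ended the calls of Cd6 and Ptprc named above, and no other call of a named gene, Sla2 not being followed in the alternatives. Quantile normalization turned the log2 difference of Cd3e in EV+IL-2 against EV no IL-2 to -0.013, of Lat in 3A10t against EV no IL-2 to -0.000926 and against 1G12t to -0.063, and of Trbc2 in 3A10t against EV no IL-2 to -0.20. Of 54 differences of the 9 genes, 20 changed sign in at least 1 alternative. None of those 20 was called in the analysis reported, and none of the 43 values with the other sign was called. The order of the group means with TPM as deposited was the same for Cd3d, Cd3g, Cd4 and Cd5 and another for the other 5 genes. TPM without counts limit all statements to the spread of 3 libraries a group, from 1 pool of animals.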
